A study of Mus musculus with 15 samples.

Results

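The 9 genes described here encode the energy-sensing kinase AMPK, the kinases that switch it on and a coactivator downstream of it. They are 6 of the genes for AMPK subunits (Prkaa1 and Prkaa2 for the catalytic alpha subunits, Prkab1 and Prkab2 for the scaffold beta subunits, Prkag1 and Prkag2 for the nucleotide-binding gamma subunits), Stk11 for the upstream kinase LKB1, Camkk2 for the calcium-dependent upstream kinase CaMKK2, and Ppargc1a for the coactivator PGC-1 alpha. They were taken by name, not by their values, from a count table of 37991 gene identifiers, and all 9 were among the 14258 genes abundant enough to be tested. The table holds RNA sequencing of whole liver from 15 female C57BL/6 mice. Young wild-type mice (young WT) were 90 days old, old wild-type mice (old WT) were 600 days old, and old S6K1 knockout mice (old KO) were 600 days old and carried a deletion of Rps6kb1, the gene of ribosomal S6 kinase 1, in the whole body. Each group had 5 libraries. Mice of both genotypes came from heterozygous breeding and ate chow freely, there was no young knockout group, and the sources used here gave no time of day and no batch.

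AMPK is a trimer of an alpha, a beta and a gamma subunit, each encoded by more than 1 gene. When ATP falls, AMP and ADP bind the gamma subunit, LKB1 phosphorylates the activation loop of the alpha subunit, and the active kinase turns fat and sterol synthesis down and fat oxidation up, while CaMKK2 phosphorylates the same loop when calcium rises. PGC-1 alpha has no DNA-binding domain of its own and acts through nuclear receptors and other factors, and in liver it is known for its induction in fasting and for its part in gluconeogenesis, fatty acid oxidation and mitochondrial biogenesis.

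Before the genes themselves, the libraries were examined. Total counts ranged from 21801754 to 38065359 per library. The targeted gene, Rps6kb1, was at 38.3 ± 3.14 CPM (counts per 1000000 counts of the library, scaled by the TMM method of edgeR, SD, n = 5) in young WT, 38.4 ± 4.21 in old WT and 17.0 ± 2.23 in old KO, so that transcripts of the locus remained in old KO (log2 fold change −1.17 against old WT, edgeR quasi-likelihood adjusted p 8.54e-06). All 9 hepatocyte markers measured were present in every library, with Alb at 85111 to 98460 CPM in the group means. Summed macrophage markers were 197 to 443 CPM in young WT, 240 to 605 CPM in old WT and 146 to 222 CPM in old KO, and between old KO and old WT all 12 had a log2 fold change below 0 (median −1.16), of which 5 were called lower. Summed T and B cell markers were 7.27 to 17.2 CPM in young WT, 45.1 to 95.3 CPM in old WT and 47.2 to 621 CPM in old KO, mostly from the immunoglobulin gene Ighm (means of 5.15, 57.8 and 213 CPM). Without Ighm, a sum chosen after seeing the data, the other 11 added up to 4.73 to 9.83, 11.3 to 21.9 and 5.57 to 13.4 CPM. Between old KO and old WT, 10 of the 12 were below 0 (median −0.62) and none was called. The library old KO 6 also held skeletal muscle transcripts, with 10 muscle markers summing to 33.6 CPM against 0.290 to 0.974 CPM in the other 14 libraries. In whole liver, fewer cells of a type and less RNA per cell cannot be told apart.

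The paralogs within each subunit are close enough in coding sequence to ask whether short reads separate them. Over their longest annotated coding sequences, Prkaa1 and Prkaa2 were identical at 70.5% of 1631 aligned bases, Prkab1 and Prkab2 at 72.9% of 802, and Prkag1 and Prkag2 at 69.4% of 993. The longest stretch shared without a mismatch is shown for each pair, in capitals, with flanking bases of the coding strand in lower case, because a 50-base read has to reach past it to be assigned. The alpha stretch lies in exon 1 of both genes, at the start of the coding sequence, at chr15:5093893-5093957 (plus strand) and chr4:104782348-104782403 (minus strand) of NCBIM37, the build also called mm9.
Prkaa1: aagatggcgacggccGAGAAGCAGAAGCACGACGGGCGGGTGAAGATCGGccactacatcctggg
Prkaa2: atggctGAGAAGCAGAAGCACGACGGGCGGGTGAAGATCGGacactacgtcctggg
Prkab1: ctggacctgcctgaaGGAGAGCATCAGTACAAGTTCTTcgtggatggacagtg
Prkab2: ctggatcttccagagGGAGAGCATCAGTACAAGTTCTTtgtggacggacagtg
Prkag1: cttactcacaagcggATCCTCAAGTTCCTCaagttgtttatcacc
Prkag2: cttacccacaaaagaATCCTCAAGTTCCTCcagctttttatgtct

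The beta stretch lies in exon 4 of both genes, at chr5:116470402-116470454 (minus strand) in Prkab1 and chr3:97467527-97467579 (plus strand) in Prkab2. The gamma stretch crosses an exon junction in both genes, from exon 8 to exon 9 of Prkag1 (chr15:98644779-98644978, minus strand) and from exon 11 to exon 12 of Prkag2 (chr5:24377472-24379740, minus strand), so these spans include the intron that is spliced out. The shared runs were 35 bases for alpha, 23 for beta and 15 for gamma, all shorter than a 50-base read. None of the 50-base windows of the annotated coding transcripts of the 6 subunit genes occurred in a coding transcript of any other gene on either strand, and the same held for Camkk2. For Ppargc1a 9 of 6609 windows did. For Stk11 it was 183 of 4119, all in Dos, a gene on the opposite strand that overlaps its 3′ end. Prkag1 overlaps the noncoding gene B130046B21Rik on the opposite strand over 44.4% of its exon length. That gene had 171 counts over the 15 libraries against 6016 for Prkag1, and since the strand setting of the counting was not stated, the Prkag1 counts are the least certain of the 9.

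Among the AMPK subunit transcripts in these livers, alpha2 led alpha1 and beta1 led beta2, and both gamma genes were well expressed. Subunit protein was not measured here. Per unit of length, as TPM (transcripts per 1000000, from counts over summed exon length), Stk11 was the most abundant of the 9 with a mean of 31.6 TPM, and it was above Prkaa2 (22.4 TPM) in 15 of 15 libraries. Prkaa2 was above Prkab1 (18.9 TPM) in 14 of 15. Prkab1 and Prkag1 (18.3 TPM) did not separate, with Prkab1 ahead in 8 of 15 libraries, and both were above Prkag2 at 10.7 TPM. Ppargc1a (8.77 TPM) and Prkaa1 (8.25 TPM) did not separate either. Ppargc1a had the higher mean but the higher level in only 4 libraries, among them young WT 3 and young WT 4 at 20.3 and 19.5 TPM. Camkk2 followed at 3.84 TPM, below Prkaa1 in every library, and Prkab2 was the lowest of the 9 in every library at 2.14 TPM. The order of Prkaa2, Prkab1, Prkag1 and Prkag2 depended on the length used. With the longest transcript as length, mean TPM was 25.3 for Prkab1, 20.4 for Prkaa2, 18.9 for Prkag2 and 16.7 for Prkag1. Prkag3, the gamma gene known from skeletal muscle, was too low to be tested, with group means of 0.331, 0.151 and 0.273 CPM in young WT, old WT and old KO.

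**Figure D1:**
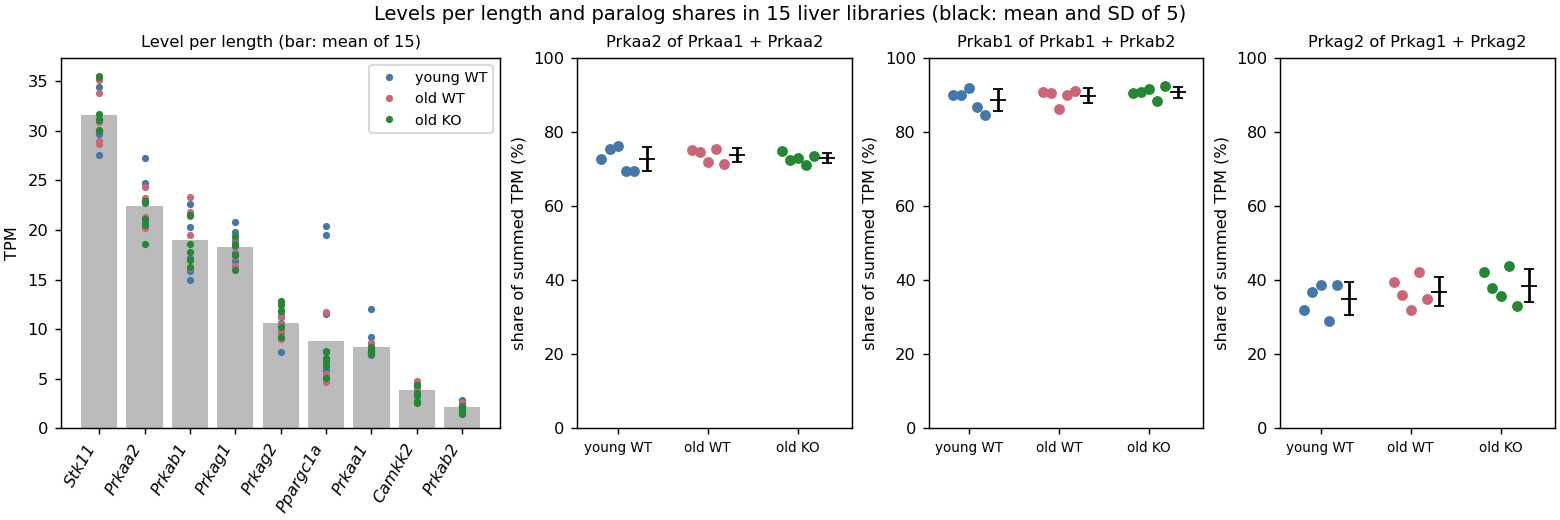
Left, TPM of the 9 genes in each of 15 libraries (points, colored by group) with the mean of all 15 as a bar; right, the share of summed TPM taken by Prkaa2, Prkab1 and Prkag2 within its pair, with the group mean and SD of 5 in black. Stk11 stands highest and Prkab2 lowest in every library, and the ranges of the 3 groups overlap for each share.

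The proportions of the paralogs overlapped between the groups. Prkaa2 took 72.6% ± 3.22 (SD, n = 5) of the alpha transcripts in young WT, 73.7% ± 1.91 in old WT and 73.0% ± 1.37 in old KO. Over the 15 libraries its share stayed within 69.4% to 76.1%. Prkab1 took 88.7% ± 2.94, 89.8% ± 1.98 and 90.8% ± 1.44 of the beta transcripts in the same order. Prkag2 took 35.01% ± 4.40, 36.9% ± 3.997 and 38.5% ± 4.47 of the gamma transcripts, and the ranges of the 3 groups overlapped for each share. The gamma share depended on which length was used. Prkag2 has 10 annotated transcripts with a summed exon length of 6480 bases but a longest transcript of 3331 bases, and with the longest transcript as the length its share over all libraries was 52.9% in place of 36.8%, which puts Prkag2 above Prkag1. The strand setting of the counting, which was not stated, also bears on this share. Genes on the opposite strand overlap Prkag1 over 44.4% of its exon length and Prkag2 over 12.3% (Gm15552), and their effect was not tested. The summed alpha level was 32.7 ± 3.83, 30.4 ± 1.68 and 29.0 ± 1.99 TPM in young WT, old WT and old KO. For beta it was 20.5 ± 3.28, 22.7 ± 2.76 and 20.1 ± 2.23 TPM, and for gamma 29.0 ± 1.91, 28.5 ± 0.455 and 29.3 ± 1.39 TPM.

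The first comparison asked which of the 9 genes differ between old and young WT liver. Ppargc1a was lower in old WT, and none of the genes for AMPK subunits or their upstream kinases passed the test. This was 1 of 9 genes called at an adjusted p under 0.05, a count set against 18.8% of all 14258 tested genes called with age (8.91% lower and 9.92% higher). No other of the 9 had an unadjusted p under 0.05, which 33.0% of tested genes had. None of the 9 had group ranges that did not overlap, which 11.4% of all tested genes had. The median log2 fold change of the 9 was −0.0041, beside 0.0080 for all tested genes.

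Ppargc1a (ENSMUSG00000029167) lies at chr5:51845488-51958964 on the minus strand of NCBIM37. It was at 23.2, 18.2, 63.9, 61.4 and 32.3 CPM in young WT 1, 2, 3, 4 and 6. In old WT 1, 4, 5, 7 and 10 it was at 18.5, 16.3, 15.2, 35.6 and 15.1 CPM. Young WT 3 and 4 were the highest of all libraries, old WT 7 was above 3 of the 5 young WT libraries, and the groups overlapped. The mean was 39.8 ± 21.5 CPM in young WT and 20.1 ± 8.76 CPM in old WT (SD, n = 5 each). The log2 fold change of old against young WT was −0.98 (SE 0.324, 95% interval −1.67 to −0.30), a fold of 0.505 with an edgeR adjusted p of 0.0443. By a two-sided exact permutation test of log2 CPM, for which 5 against 5 allows no p below 0.00794, p was 0.0794. Adjusted by Benjamini-Hochberg over the 27 exact tests of the 9 genes in all comparisons, this exact permutation p was 0.481.

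This call was close to the threshold. It was also made with RLE size factors, with either other filter on low counts and with DESeq2 (adjusted p 0.0135), and it was lost with upper quartile scaling (0.0514), limma voom (0.0632) and a fit of the 10 WT libraries alone (0.0819). The log2 fold change was below 0 under all of these, from −0.99 to −0.89. Without young WT 3 it was −0.74 (adjusted p 0.126) and without young WT 4 −0.79 (0.113), while without old WT 7 it was −1.29 (0.00999). Of the 15 fits that left out 1 library, 5 kept the call. It was also lost without old WT 1, 4, 5 or 10 (adjusted p 0.0904, 0.0990, 0.101 and 0.0912) and, since all groups share 1 estimate of the spread, without old KO 1, 2, 4 or 5 (0.0514, 0.0570, 0.0531 and 0.0558).

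**Figure D2:**
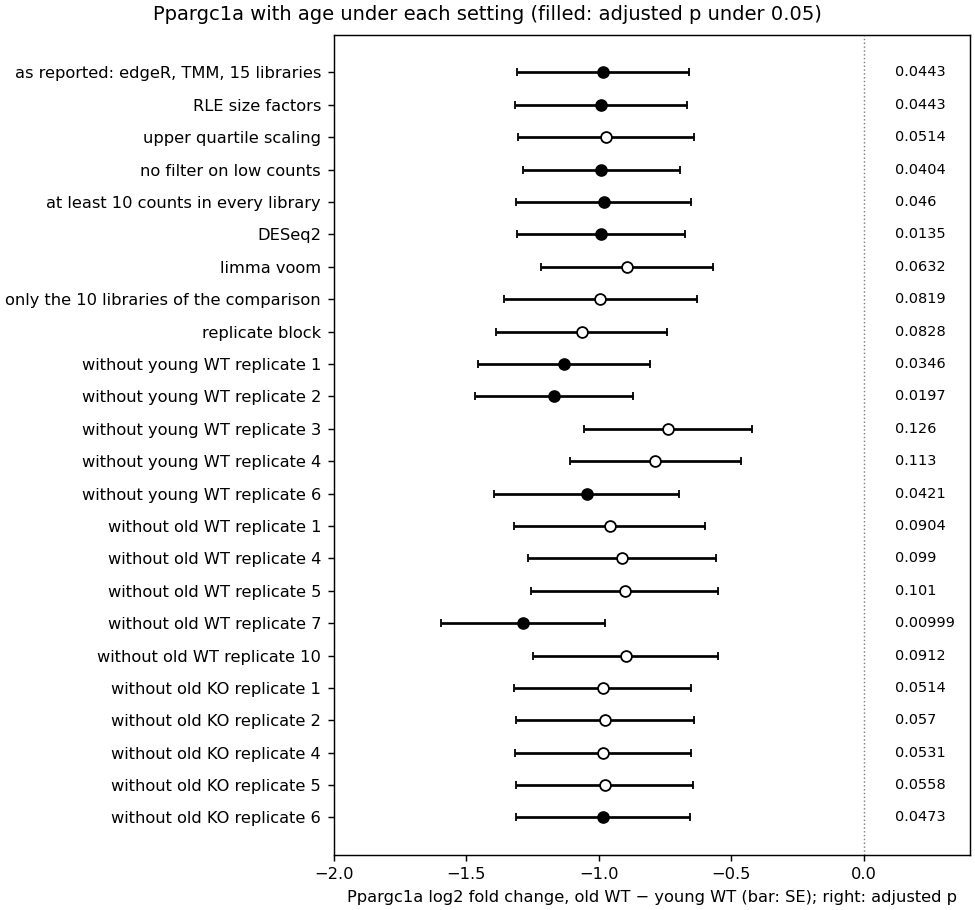
Log2 fold change of Ppargc1a between old and young WT liver (x axis, bars are SE) as reported, under 8 alternatives and without each of the 15 libraries (y axis), with the adjusted p at the right and filled points where it was under 0.05. Every point lies below 0, from −1.29 to −0.74, and the adjusted p runs from 0.00999 to 0.126.

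Other transcripts moved with the same groups. Of 12 T and B cell markers, 5 were called higher in old WT. Their sum was higher in every old WT library than in every young WT library both with Ighm (45.1 to 95.3 against 7.27 to 17.2 CPM) and without it (11.3 to 21.9 against 4.73 to 9.83 CPM), although Ighm was the only 1 of the 12 whose own ranges did not overlap. Of 10 liver endothelial markers, 8 were below 0 (median log2 fold change −0.44) and 3 were called lower, Stab1 (−0.47, adjusted p 0.0214), Stab2 (−0.56, 0.0358) and Lyve1 (−0.94, 0.0167), while their sums overlapped (197 to 343 in old WT and 247 to 450 CPM in young WT). Summed hepatocyte markers overlapped too (98969 to 149972 in old WT and 91376 to 142159 CPM in young WT), and 2 of 9 were called lower, Apoa1 (−0.69, adjusted p 0.0241) and Cps1 (−1.27, 0.0197). Among 18 clock genes 4 were called higher and 2 lower in old WT, among them Nr1d1, a repressor of the clock (33.6 ± 11.7 to 12.2 ± 7.75 CPM, log2 fold change −1.46, adjusted p 0.0368), and Npas2, an activator (7.48 ± 1.64 to 14.9 ± 3.05 CPM, 0.99, adjusted p 0.00499). The part of cell makeup or of the hour of collection in the Ppargc1a difference was not tested.

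For the catalytic subunits the levels were steady. Prkaa2 (ENSMUSG00000028518) lies at chr4:104702479-104782495 on the minus strand of NCBIM37 and Prkaa1 (ENSMUSG00000050697) at chr15:5093861-5131899 on the plus strand. Prkaa2 was at 82.5, 84.1, 93.3, 78.8 and 91.7 CPM in young WT 1, 2, 3, 4 and 6, at 79.7, 86.7, 72.2, 84.0 and 82.0 CPM in old WT 1, 4, 5, 7 and 10, and at 83.5, 77.0, 82.2, 75.6 and 87.4 CPM in old KO 1, 2, 4, 5 and 6. All 3 groups overlapped, and the highest of the 15 libraries was only 1.29 times the lowest. The spread of Prkaa2 over the 15 libraries was larger than that of just 2.55% of tested genes. Its log2 fold change was −0.09 with age (95% interval −0.24 to 0.06, adjusted p 0.407). Prkaa1 was at 18.1, 15.9, 17.1, 20.3 and 23.5 CPM in young WT, 15.5, 17.2, 16.4, 15.9 and 19.2 CPM in old WT, and 16.4, 17.0, 17.6, 17.9 and 18.3 CPM in old KO, in the same order of libraries. Young WT 6 was the highest and old WT 1 the lowest, the groups overlapped, and the log2 fold change with age was −0.17 (−0.38 to 0.04, adjusted p 0.237).

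The scaffold subunits are encoded by Prkab1 (ENSMUSG00000029513, chr5:116463595-116474517, minus strand) and Prkab2 (ENSMUSG00000038205, chr3:97462116-97477735, plus strand). Prkab1 was at 31.5, 28.9, 24.9, 21.8 and 20.5 CPM in young WT, 28.8, 29.3, 22.3, 32.7 and 28.7 CPM in old WT, and 30.2, 26.9, 26.7, 25.5 and 25.02 CPM in old KO. The young WT range took in 4 of the old WT libraries and all old KO libraries (log2 fold change with age 0.15, 95% interval −0.10 to 0.40, adjusted p 0.400). Prkab2 was at 5.84, 5.25, 3.62, 5.48 and 6.21 CPM in young WT, 4.84, 5.01, 5.84, 6.01 and 4.59 CPM in old WT, and 5.28, 4.47, 4.07, 5.49 and 3.43 CPM in old KO. With 74 to 222 counts a library, it was measured with fewer reads than the other subunit genes, and its interval with age was wide for this group of genes (−0.0041, −0.34 to 0.33, adjusted p 0.990).

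The nucleotide-binding subunits are encoded by Prkag1 (ENSMUSG00000067713, chr15:98643229-98661939, minus strand) and Prkag2 (ENSMUSG00000028944, chr5:24368562-24606460, minus strand). Prkag1 was at 15.5, 15.1, 13.8, 14.9 and 11.7 CPM in young WT, 12.3, 13.8, 14.3, 12.4 and 14.5 CPM in old WT, and 13.2, 15, 14.9, 13.5 and 14.7 CPM in old KO. Its spread over the libraries was larger than that of 7.26% of tested genes, and the log2 fold change with age was −0.08 (−0.27 to 0.11, adjusted p 0.557). Prkag2 was at 28.6, 34.5, 34.4, 23.8 and 29.1 CPM in young WT, 31.7, 30.5, 26.3, 35.4 and 30.7 CPM in old WT, and 38.04, 36.0, 32.5, 41.2 and 28.6 CPM in old KO. Old KO 1, 2 and 5 were above all WT libraries and old KO 6 was below 8 of the 10. The log2 fold change with age was 0.04 (−0.20 to 0.29, adjusted p 0.838).

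The upstream kinases are encoded by Stk11 (ENSMUSG00000003068, chr10:79578548-79593427, plus strand) and Camkk2 (ENSMUSG00000029471, chr5:123183213-123229391, minus strand). Stk11 was at 61.6, 73.0, 59.6, 67.9 and 57.9 CPM in young WT, 69.3, 63.2, 69.7, 60.1 and 63.8 CPM in old WT, and 66.5, 66.9, 79.6, 70.6 and 77.8 CPM in old KO. Old KO 4 and 6 were above all WT libraries, and the other old KO libraries lay within the WT range. With age its log2 fold change was 0.03 (−0.14 to 0.20, adjusted p 0.845). Camkk2 was at 5.42, 6.29, 6.03, 4.85 and 6.08 CPM in young WT, 5.75, 5.30, 6.71, 5.35 and 7.24 CPM in old WT, and 5.09, 5.30, 3.94, 4.40 and 6.73 CPM in old KO. Old KO 4 and 5 were below all WT libraries, and the log2 fold change with age was 0.08 (−0.22 to 0.38, adjusted p 0.719).

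**Figure D3:**
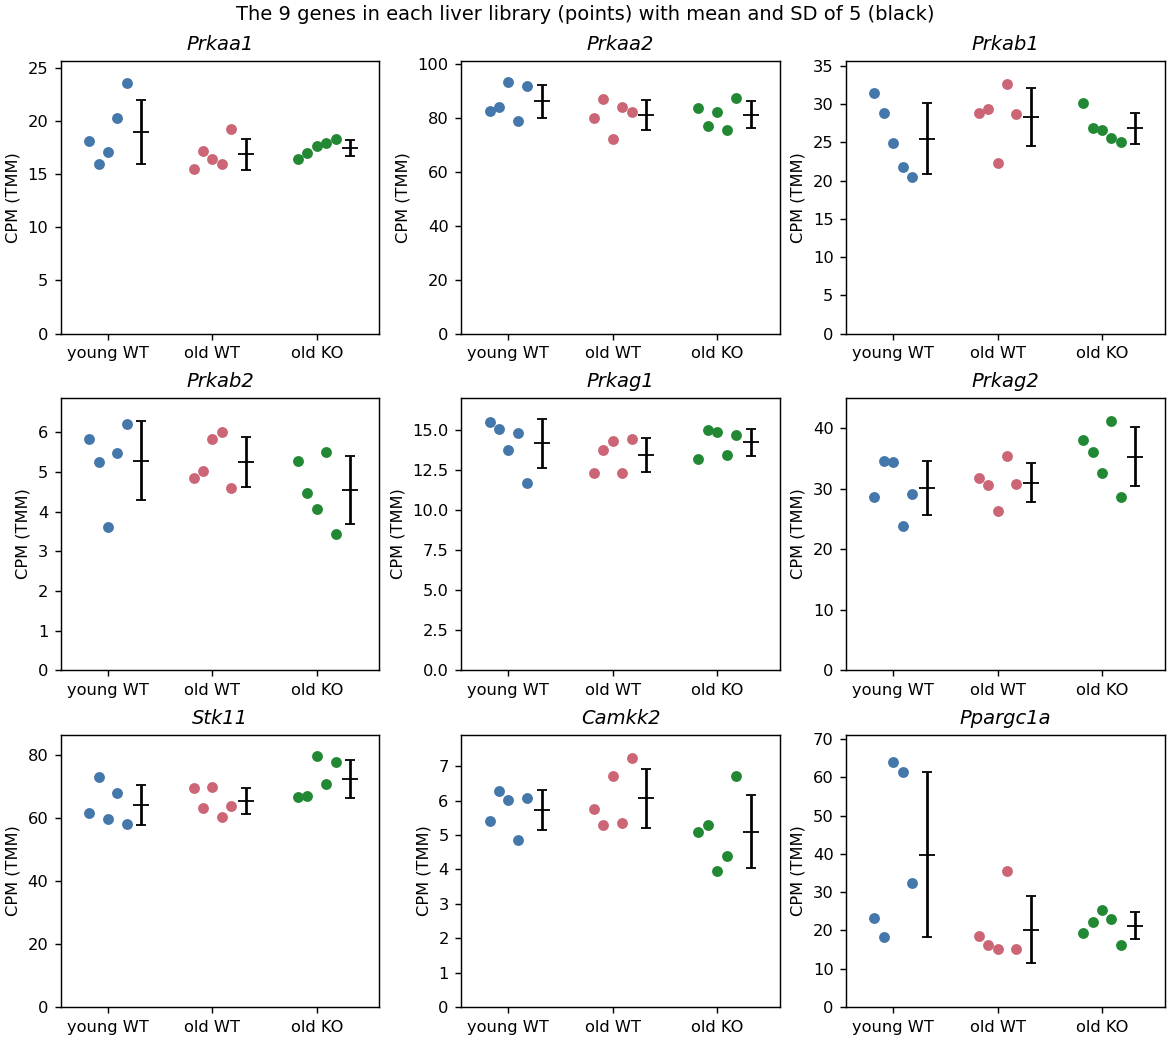
CPM of each of the 9 genes (y axes from 0) in every library of young WT, old WT and old KO liver (points), with the mean and SD of 5 libraries in black. The points of the 3 groups overlap in every panel, and Ppargc1a shows the widest scatter, from 15.1 to 63.9 CPM.

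The comparison of old KO with old WT asked whether loss of S6K1 changes these genes in old liver. None of the 9 was called, where 0.533% of tested genes were (0.421% lower and 0.112% higher), and none had an unadjusted p under 0.05 by edgeR, where 11.6% of tested genes did. DESeq2 and limma voom called none of the 9 either, and no gene had group ranges that did not overlap (3.2% of tested genes). The median log2 fold change of the 9 was 0.05, beside 0.0008 for all tested genes.

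Ppargc1a was at 19.2, 22.1, 25.4, 23.1 and 16.3 CPM in old KO 1, 2, 4, 5 and 6, within the range of old WT. The mean was 21.2 ± 3.52 CPM against 20.1 ± 8.76 CPM. Its log2 fold change was 0.08 (adjusted p 0.962). The 95% interval of −0.61 to 0.77 runs from a fold of 0.655 to a fold of 1.70. With this scatter, a difference of up to that size in either direction could therefore not be excluded. Without old WT 7 the value was 0.38.

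The intervals of the subunits were narrower. For Prkaa2 the log2 fold change was 0.0036 (95% interval −0.15 to 0.15), for Prkaa1 0.05 (−0.16 to 0.26), for Prkab1 −0.08 (−0.33 to 0.18) and for Prkag1 0.08 (−0.10 to 0.27). A change of 1 on the log2 scale lies outside the intervals of all 9 genes in this comparison. The largest values were those of Camkk2 (6.07 ± 0.865 to 5.09 ± 1.06 CPM, −0.25, −0.56 to 0.05, adjusted p 0.526), Prkab2 (5.26 ± 0.629 to 4.55 ± 0.852 CPM, −0.21, −0.54 to 0.13, 0.668), Prkag2 (30.9 ± 3.24 to 35.3 ± 4.88 CPM, 0.19, −0.06 to 0.43, 0.558) and Stk11 (65.2 ± 4.15 to 72.3 ± 6.11 CPM, 0.15, −0.02 to 0.32, 0.503). In each of these 4, and also in Prkag1, 3 of the 5 old KO libraries lay beyond all old WT libraries. How many of all tested genes do so was not counted. The smallest exact permutation p of the 9 was 0.0635, for Stk11 (0.481 when adjusted over the 27 exact tests). Without old KO 6, the library with muscle transcripts, Camkk2 was at −0.37 (adjusted p 0.274), Prkag2 at 0.25 (0.395), Prkab2 at −0.12 (0.814) and Stk11 at 0.12 (0.621).

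**Figure D4:**
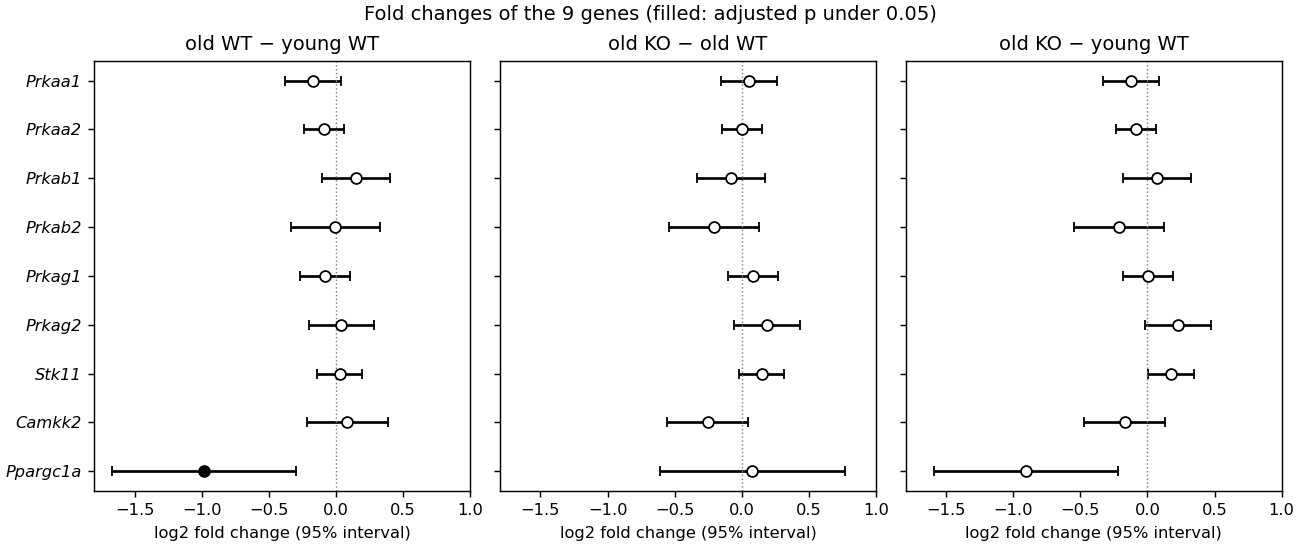
Log2 fold changes (x axis) of the 9 genes with their 95% intervals in the 3 comparisons of old WT with young WT, old KO with old WT and old KO with young WT, with a filled point where the adjusted p was under 0.05. Ppargc1a with age is the single filled point, and the intervals of the other genes with age and with genotype all take in 0.

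Old KO and young WT differ in both age and genotype, and their comparison shares its libraries with the others. None of the 9 genes was called, where 23.3% of tested genes were (11.3% lower and 12% higher), and no gene had group ranges that did not overlap (13.9% of tested genes). Ppargc1a had a log2 fold change of −0.91 (SE 0.324, 95% interval −1.59 to −0.22, edgeR adjusted p 0.0537). Its exact permutation p was 0.0952, or 0.481 when adjusted over the 27 exact tests. DESeq2 called Ppargc1a (adjusted p 0.0236), as did the fit without a filter on low counts (0.0497) and the fits without young WT 1 (0.0373), young WT 2 (0.0209) or old WT 7 (0.0305). Stk11 had 72.3 ± 6.11 against 64.0 ± 6.29 CPM (log2 fold change 0.17, 0.01 to 0.34, adjusted p 0.124). These were the 2 genes with an unadjusted p under 0.05, which 36.8% of tested genes had.

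Ppargc1a varied more between livers than the other 8 genes. Its highest library was 4.24 times its lowest, and its spread was larger than that of 91.0% of tested genes, while for the other 8 the highest library was 1.29 to 1.84 times the lowest and the spread exceeded that of 2.55% to 47.8% of tested genes. Its coefficient of variation was 54.0% in young WT, 43.5% in old WT and 16.6% in old KO, and these were not tested against each other. The old WT value rested on old WT 7, without which it was 9.87%. Leaving out any 1 library, a check also chosen after seeing the data, gave 45.4% to 59.6% in young WT and 11.3% to 19.2% in old KO.

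Around its start Ppargc1a had fewer CpG dinucleotides than the other 8 genes, although a Prkag2 window came close. The bases upstream of a Ppargc1a start are printed because Ppargc1a is the gene that was called. Promoter windows of 300 bases (250 before a start and 50 after it) were taken from RefSeq (GRCm38.p6) for all 9 genes, with 3 windows for Prkag2. For Ppargc1a that window lies at a start 13804 bases upstream of the start of the transcript Ppargc1a-001, so the window of Ppargc1a-001 was read from NCBIM37 as well. The 250 bases before the start of Ppargc1a-001 (chr5:51945161-51945410 of NCBIM37, minus strand) are set beside those of Prkaa2 (chr4:105109899-105110148 of GRCm38.p6, minus strand), with every motif that was searched in capitals.
Ppargc1a: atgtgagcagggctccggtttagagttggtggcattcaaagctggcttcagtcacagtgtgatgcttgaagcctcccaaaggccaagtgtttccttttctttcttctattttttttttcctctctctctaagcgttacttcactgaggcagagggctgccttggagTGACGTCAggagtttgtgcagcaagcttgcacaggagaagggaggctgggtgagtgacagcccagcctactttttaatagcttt
Prkaa2: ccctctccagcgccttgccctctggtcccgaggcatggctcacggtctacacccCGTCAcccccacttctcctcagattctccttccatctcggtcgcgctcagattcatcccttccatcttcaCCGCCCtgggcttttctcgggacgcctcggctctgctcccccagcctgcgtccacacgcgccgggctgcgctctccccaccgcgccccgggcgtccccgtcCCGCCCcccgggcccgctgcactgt

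The Ppargc1a window holds the full cyclic AMP response element TGACGTCA from base −84 to base −77 of the start, the motif bound by CREB, a factor activated by glucagon signaling. It was the only window of these genes with that motif, which 1.79% of 32851 RefSeq promoters hold. The Prkaa2 window holds its shorter core TGACG (20.8% of promoters) and 2 GC boxes GGGCGG (35.7%), each on the strand that is complementary to the printed one. TGACGTCA contains the core on both strands, and the core alone was also found in the upstream Ppargc1a window and in those of Prkag1 and Stk11. Neither Ppargc1a window had a GC box, while 7 of the other 8 genes had one in at least 1 window, with 5 in Prkaa1 and 5 in Prkab2. The E-box CACGTG (7.15% of promoters) and the motif TATAAA (13.6%) were in none of the windows. The forkhead motif GTAAACA (3.65%) was only in that of Stk11. Both strands were searched. The Ppargc1a windows held 3 and 5 CpG dinucleotides, against a median of 7 over all promoters, and the other 8 genes had 16 to 52 in their windows apart from 1 of the 3 Prkag2 windows, which had 6. Such matches are a description of these windows. The counts are per gene, so the use of either Ppargc1a start in these livers was not measured.

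Genes with a profile most like that of each of the 9 over the 15 libraries were listed by the Pearson correlation of log2 CPM among 12124 genes with a mean of at least 1 CPM. The points share libraries and their group differences, and no p is given. Ppargc1a was most like Cyth1 (r = 0.862), Slc7a2, a transporter of cationic amino acids (r = 0.845), and Etnk2, an ethanolamine kinase (r = 0.844). In young WT, old WT and old KO, Cyth1 had means of 46.5 ± 12.8, 32.3 ± 2.59 and 33.7 ± 6.72 CPM. Slc7a2 had means of 1132 ± 377, 728 ± 403 and 642 ± 101 CPM, with old KO lowest, and Etnk2 had means of 305 ± 127, 135 ± 32.7 and 156 ± 55.8 CPM. All 3 were highest in young WT, as Ppargc1a was, and they were chosen for their likeness to it. Prkaa2 was most like Mef2a, a transcription factor (r = 0.881), and Prkaa1 was most like Rg9mtd1 (r = 0.867). For the beta and gamma genes the nearest were Zfp157 for Prkab1 (r = 0.879), Anxa5 for Prkab2 (r = 0.804), 1810020D17Rik for Prkag1 (r = 0.876) and Zfp229 for Prkag2 (r = 0.858). Stk11 was most like Tm2d2 (r = 0.844), and Camkk2 was most like Itga4, an integrin of leukocytes (r = 0.739). None of the 9 was among the 3 nearest genes of another. The highest correlation between any of them was 0.480, between Prkab1 and Prkag2.

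Genes around AMPK and PGC-1 alpha were examined in the same fits, starting with age. Of 147 tested genes in 5 lists (partners of LKB1 and other AMPK regulators, the related kinases that LKB1 activates, AMPK substrates, the PGC-1 family with its partners and regulators, and target genes of PGC-1 alpha in liver), 33 were called, 27 lower and 6 higher in old WT. That is 22.4% of them, beside 18.8% of all tested genes, and their median log2 fold change was −0.12. Without young WT 2 it was 20 genes and without old WT 4 it was 19. The lists were written from general knowledge and were not tested as sets.

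Among 46 PGC-1 alpha target genes, 9 were called lower and none higher in old WT, and 39 had a log2 fold change below 0 (median −0.16). Over all 14258 tested genes, the background for each list, 8.91% were called lower, 9.92% higher, and 6959 had a value below 0. Cyp8b1, a sterol hydroxylase of bile acid synthesis, fell from 734 ± 223 to 263 ± 65.1 CPM (log2 fold change −1.48, SE 0.271, adjusted p 0.00231). Alas1, the first enzyme of heme synthesis, fell from 536 ± 217 to 197 ± 56.4 CPM (−1.45, adjusted p 0.00266). Cpt1a, which admits long-chain fatty acids to mitochondria and is also controlled through the product of the AMPK substrate ACC2, fell from 981 ± 84.4 to 634 ± 56.5 CPM (−0.63, adjusted p 0.00749), with no overlap between the groups. Cycs, cytochrome c, fell from 99.0 ± 9.61 to 68.0 ± 12.04 CPM (−0.54, adjusted p 0.00971). The gluconeogenic targets did not pass the test, with Pck1 at 3169 ± 1177 and 2996 ± 1066 CPM (−0.08, adjusted p 0.876), G6pc at 606 ± 192 and 669 ± 254 CPM (0.14, 0.777) and Pdk4, a brake on glucose oxidation, at 105 ± 52.2 and 88.7 ± 23.7 CPM (−0.24, 0.714).

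The other members of the PGC-1 family were also lower with age. Ppargc1b, the gene of PGC-1 beta, fell from 7.02 ± 2.24 to 4.38 ± 0.653 CPM (log2 fold change −0.68, SE 0.226, adjusted p 0.0457), a call that 4 of 15 fits without 1 library kept (adjusted p up to 0.129). Pprc1, the gene of the related coactivator PRC, fell from 20.8 ± 2.96 to 12.3 ± 2.29 CPM (−0.76, adjusted p 0.00180) and kept its call in all 15. Of the 37 tested genes in that list 6 were called lower and 3 higher, with a median of −0.08. Lpin1, a phosphatidate phosphatase that also works as a coactivator with PGC-1 alpha, had the largest fall, from 209 ± 136 to 41.7 ± 12.4 CPM (−2.33, adjusted p 0.00810), and Mybbp1a, a repressor of PGC-1 alpha, fell from 71.5 ± 13.0 to 45.9 ± 3.40 CPM (−0.64, adjusted p 0.00120). Thrb, a thyroid hormone receptor, rose from 39.1 ± 10.3 to 53.4 ± 6.31 CPM (0.45, adjusted p 0.0317). Esrra, Sirt1 and Crtc2, partners and regulators of PGC-1 alpha, had values of −0.11, 0.06 and −0.13 and adjusted p of 0.687, 0.760 and 0.405.

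Of 38 AMPK substrates, 9 were called lower and 2 higher in old WT (median −0.12). Acacb, the gene of the acetyl-CoA carboxylase at mitochondria, fell from 111 ± 25.6 to 65.4 ± 23.0 CPM (log2 fold change −0.77, adjusted p 0.0219), while Acaca, that of the cytosolic enzyme, was at 102 ± 8.12 and 95.4 ± 8.20 CPM (−0.10, 0.681). The 6-phosphofructo-2-kinase genes Pfkfb2 (80.2 ± 22.6 to 44.5 ± 5.04 CPM, −0.85, adjusted p 0.00624) and Pfkfb3 (7.19 ± 1.56 to 4.33 ± 0.347 CPM, −0.73, 0.0118) and the liver glycogen synthase Gys2 (180 ± 24.8 to 114 ± 9.33 CPM, −0.66, 0.00152) also fell. Cry1, a clock repressor, rose from 14.4 ± 2.99 to 23.2 ± 7.86 CPM (0.69, adjusted p 0.0373), and Srebf1 was at 56.6 ± 14.5 and 84.1 ± 34.9 CPM (0.57, 0.301).

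The regulators of AMPK mostly did not pass the test. Of 21 tested genes 1 was called higher and 2 lower in old WT (median −0.0001), and none of these 3 is a kinase of AMPK or a partner of LKB1. Ppp1r3c, which targets a phosphatase to glycogen, rose from 75.4 ± 31.5 to 169 ± 38.7 CPM (log2 fold change 1.16, adjusted p 0.00673), Cidec, a lipid droplet protein, fell from 45.8 ± 42.8 to 4.99 ± 4.48 CPM (−3.21, 0.00360), and Ppp2ca, a phosphatase catalytic subunit, fell from 160 ± 9.40 to 131 ± 11.5 CPM (−0.30, 0.0136). The partners of LKB1, Cab39 (91.6 ± 4.37 and 87.5 ± 8.52 CPM, −0.07, adjusted p 0.628) and Strada (3.06 ± 0.352 and 3.68 ± 0.483 CPM, 0.26, 0.184), the sestrins Sesn1 (−0.20, 0.385), Sesn2 (−0.17, 0.584) and Sesn3 (−0.11, 0.738), and Flcn (0.28, 0.220) were not called. Camkk1, the paralog of Camkk2, was at 0.282 ± 0.106 and 0.384 ± 0.134 CPM (0.45, adjusted p 0.414). Of 10 related kinases that LKB1 activates, Sik3 (72.2 ± 12.5 to 52.4 ± 3.66 CPM, −0.46, adjusted p 0.00687) and Mark2 (23.1 ± 2.58 to 19.0 ± 0.993 CPM, −0.29, 0.0248) fell and none was called higher (8 of 10 below 0, median −0.24). Nuak1 had the highest value of them, at 3.89 ± 1.02 and 5.39 ± 1.40 CPM (0.47, adjusted p 0.157).

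In the comparison of old KO with old WT, none of the 147 genes was called (0% beside 0.533% of all tested genes), and their median log2 fold change was 0.02. Pck1 was at 2483 ± 879 CPM in old KO (−0.27), G6pc at 439 ± 200 CPM (−0.61), Pdk4 at 57.9 ± 41.1 CPM (−0.61) and Cpt1a at 494 ± 119 CPM (−0.36). Ucp2, a mitochondrial carrier that macrophages also express, was at 44.6 ± 15.1 CPM in old WT and 22.7 ± 1.01 CPM in old KO (−0.97, adjusted p 0.0659). DESeq2 called it, and it was also called without a filter on low counts and in 3 of 15 fits without 1 library (without young WT 2, young WT 6 or old WT 7). It was singled out after its values were seen. Summed macrophage markers were lower in all old KO libraries (146 to 222 CPM) than in all old WT libraries (240 to 605 CPM), and their part in Ucp2 was not tested.

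**Figure D5:**
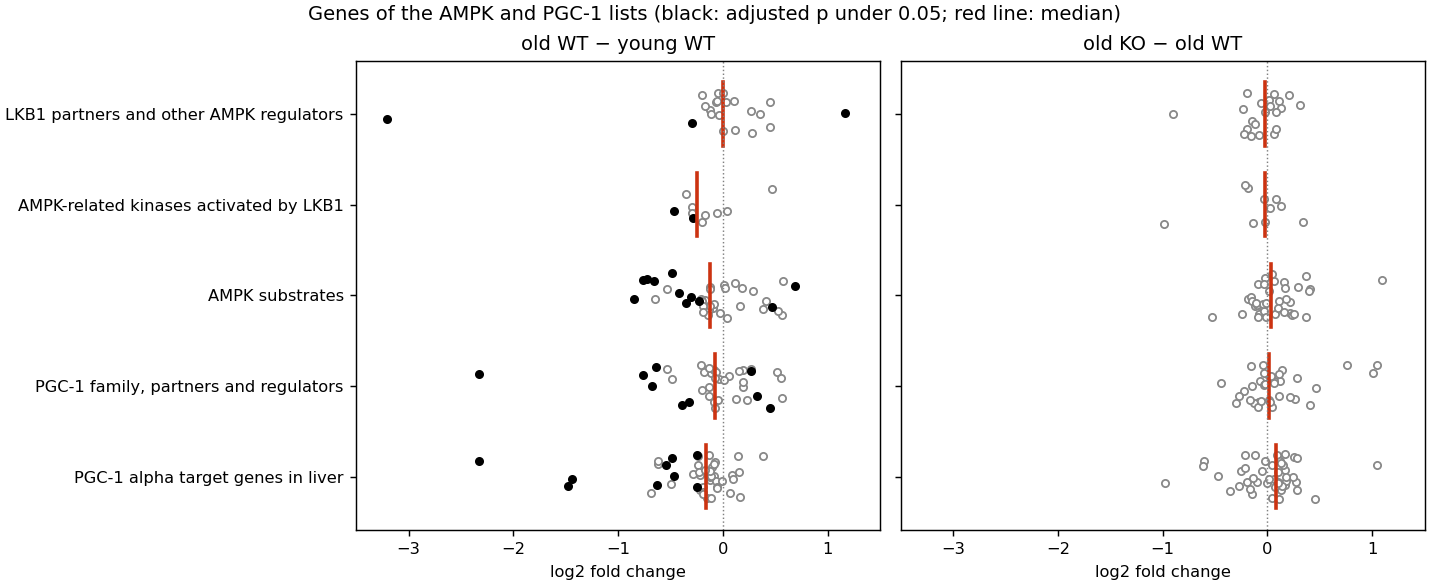
Log2 fold change (x axis) of each tested gene in the 5 lists (y axis) between old and young WT (left) and between old KO and old WT (right), black where the adjusted p was under 0.05, with the median of each list as a red line. On the left 33 different genes are black, 27 of them below 0 (Lpin1 is in 2 of the lists and is drawn in both), and on the right none is.

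Between old KO and young WT, 44 of the 147 genes were called (29.9%, beside 23.3% of all tested genes), 29 lower and 15 higher. Cpt1a was at 494 ± 119 CPM in old KO and 981 ± 84.4 CPM in young WT (log2 fold change −0.99, adjusted p 0.000347), and Ppargc1b at 3.55 ± 1.10 and 7.02 ± 2.24 CPM (−0.98, 0.00666). Sik2, a related kinase that LKB1 activates, was at 10.97 ± 1.74 and 15.6 ± 0.901 CPM (−0.51, adjusted p 0.00241), and Fnip2, a partner of folliculin, at 36.5 ± 4.97 and 24.5 ± 6.71 CPM (0.58, 0.0211). Among 46 PGC-1 alpha targets 9 were called lower and 1 higher, Cox7a1, a subunit of cytochrome c oxidase (0.962 ± 0.246 and 0.529 ± 0.170 CPM, 0.83, adjusted p 0.0425). At this low level the Cox7a1 call held in 3 of the 7 alternatives that tested it. It held in 7 of 15 fits without 1 library (edgeR adjusted p up to 0.0973).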

How the data were processed

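RNA was extracted from flash-frozen livers of 15 mice. Per the study's methods, the authors prepared stranded poly(A) libraries, sequenced single-end 50-base reads, converted them with CASAVA and mapped them to mm9 with TopHat2 2.0.11. The deposited values are the raw read counts of single libraries that the authors made with HTSeq; the annotation and the strand setting are not given in the sources used here, so antisense overlaps are uncertain. Titles gave each library's group and number. Positions, symbols and exon lengths came from GENCODE M1 on NCBIM37, in which 37205 of 37991 identifiers had a position. Counts were scaled by TMM and tested with edgeR 4.0.16 (R 4.3.3) after filterByExpr, with glmQLFit and glmQLFTest on all 15 libraries. P-values were adjusted by Benjamini-Hochberg over 14258 genes with a threshold of 0.05, and every adjusted p is from edgeR unless another tool is named. CPM values are TMM-scaled. Intervals are 95% intervals of the fit, and exact permutation tests used log2 of CPM plus 0.1. DESeq2 1.42.0 (the authors used DESeq2 1.18.1) and limma 3.58.1 were alternatives. In simulated counts 84% to 85% of 2-fold changes and 99% to 100% of 4-fold changes were recovered across the 3 comparisons. The changed genes were drawn at random, so these rates do not apply to Ppargc1a, whose spread exceeded that of 91.0% of tested genes. No source says whether libraries of a group shared a litter or cage, so p-values measure only the spread between these libraries. All 30 pairs of libraries within groups differed beyond sampling noise. Libraries held 21801754 to 38065359 counts. Counting error weighs most on the genes with the fewest counts, Prkab2 (74 to 222 a library) and Camkk2 (92 to 225). It was not separated from the spread between livers. Coding identity was computed with Biopython 1.88 from annotated transcripts.

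The text names the 9 genes, 20 related genes listed by name, up to 5 called genes with the largest log2 fold change per list and comparison, the 3 genes most like each of the 9 (1 or more of them printed) and cell type markers. The 9 genes and all lists were chosen with earlier results of these data known. Of 257 list entries 256 matched. The comparisons of age and genotype share the old WT libraries, so no overlap between them is given. Values of 1 gene in the lists are not reported here.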

Additional observations from a re-analysis of the deposited data

Results flagged for a closer look

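Across the 9 genes in 3 groups, 27 sets of 5 libraries were examined for a library far from the others, and chance alone would mark about 1 in 20. A single value stood apart, Ppargc1a in old WT 7 at 35.6 CPM, where the other 4 old WT libraries lay between 15.1 and 18.5 CPM. Its gap to the nearest library was 0.832 of the range of the group. Old WT 7 also stood apart over all tested genes. On the second principal component of log2 CPM it was at −44.8, with all other libraries between −16.1 and 30.0. On the first it was at 14.2, within the rest of its group (11.3 to 20.3). Without that library the log2 fold change of Ppargc1a with age was −1.29 (edgeR adjusted p 0.00999), and with genotype it was 0.38.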

How the results depend on the processing

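Under the 8 alternatives, single genes kept direction and call in 197 of 216 values. With 1 library left out they did so in 369 of 405. Values that changed sign were near 0, and the cause was not tested. For Prkab2 with age the log2 fold change was 0.0057 with upper quartile scaling, 0.0020 with at least 10 counts in every library, 0.015 with limma voom and −0.10 to 0.065 with 1 library left out. Over the 8 alternatives Prkab2 was not called with age or between old KO and young WT. Its log2 fold change ran from −0.27 to 0.015 with age (−0.0041 as reported) and from −0.40 to −0.20 between old KO and young WT (−0.21 as reported). For Prkaa2 with genotype it was −0.016 with upper quartile scaling, −0.0025 without a filter, −0.0059 with at least 10 counts and −0.036 to 0.024 with 1 library left out. For Prkag1 between old KO and young WT it was −0.0092, −0.0017 and −0.00053 under those 3 settings in the same order, −0.0027 with limma voom and −0.054 to 0.037 with 1 library left out. Leaving out 1 library gave −0.044 to 0.10 for Prkag2 with age and −0.0088 to 0.38 for Ppargc1a with genotype.

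The number of the 9 genes called with age was 0 with upper quartile scaling, limma voom and the 10 WT libraries, and 0 to 1 with 1 library left out. Between old KO and young WT it was 1 without a filter and with DESeq2, and 0 to 1 with 1 library left out. With genotype, genes called among all tested were 302 by DESeq2, 23 by limma voom and 9 to 108 with 1 library left out (76 as reported). Leaving out old WT 1, 4, 7 or 10 gave 10, 9, 37 or 42 genes, leaving out young WT 4 gave 41, and leaving out old KO 2, 4, 5 or 6 gave 13, 14, 17 or 13. With age they were 1748 to 3284 (2685 as reported), lowest without young WT 1. Genes called in the 5 lists, refitted as alternatives chosen after seeing the data, were 19 to 43 with age and 0 to 1 with genotype when 1 library was left out, and with genotype 1 without a filter and 2 by DESeq2. With the longest transcript as length the beta1 share was 92.7% and the gamma2 share 52.9%.

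Groups share some replicate numbers, but same-numbered libraries did not deviate together (correlations −0.15 to 0.077 over 9 pairs). The 66 other pairs had correlations of −0.27 to 0.36. These values gave no sign that the numbers pair the livers, but they cannot exclude a pairing, and the main fit was unpaired. With the replicate number as a block, 899 genes were called with age, 13 of them in the 5 lists, and 6 with genotype. None of the 9 genes was called with age, with Ppargc1a at −1.06 (adjusted p 0.0828), and Prkaa2 and Prkab1 were at −0.0084 and 0.030 with genotype and Prkag1 at −0.0062 between old KO and young WT.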
